A study of Mus musculus with 103 samples.

Results

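NF-kappaB is a family of dimeric transcription factors that carries signals of tumour necrosis factor, interleukin 1, microbial products and cell damage into the nucleus. In resting cells the dimers are held in the cytoplasm by IkappaB proteins. Activated receptors recruit adaptors and ubiquitin ligases that switch on the IkappaB kinase, the inhibitor is degraded, and the freed dimers turn on inflammatory genes together with genes for their own inhibitors. In skeletal muscle the pathway is known for restraining myogenic differentiation and for its activity in inflamed and ageing tissue. Much of its control acts on proteins, by degradation, modification and movement into the nucleus, which transcript levels do not record.

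Described here are 10 genes of the pathway, chosen by symbol, of 43283 genes with an Ensembl ID in the bulk table. They are 4 subunits (Nfkb1, Nfkb2, Rela and Relb), the inhibitor Nfkbia, the nuclear co-regulator Nfkbiz, the signal-editing enzyme Tnfaip3, the receptor Tnfrsf1a, and Tnfaip2 and Icam1 as target genes. All 10 were found in the bulk table and in the table of single wells, and all 10 passed the bulk filter of a mean of at least 1 TPM. TPM is a level per transcript length that sums to the same total in each library.

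The libraries came from untreated muscle stem cells of C57BL/6 mice, with 3 young mice, 2 middle-aged mice of 12 and 13 months and 3 old mice of 24 months in bulk. For the young bulk mice the labels give 3 months in the age field and 2 months in the sample description. Single wells came from 1 mouse of 24 months (31 wells) and 1 mouse of 3 months (64 wells), so wells of an age share an animal. A culture step with fibroblast growth factor 2 stands in the labels, and its place before or after RNA isolation is not stated. The design text calls the cells myoblasts, and the cell type field says only muscle cell. The bulk mice are separate animals per the design text, and every p-value below measures the spread between these few libraries.

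The labelled cell type was checked against its markers. The summed level of 9 muscle stem cell markers was 1442.7 to 1596.3 TPM in young, 1335.9 to 1601.2 TPM in middle-aged and 1109.8 to 1671.2 TPM in old libraries, so the ages overlapped. Pax7, the defining transcription factor of these cells, had 308.37, 316.22 and 247.89 TPM in the young set, 230.51 and 127.34 TPM in the middle-aged set and 219.44, 246.47 and 185.2 TPM in the old set. Every older library lay below every young one for Pax7, but old library 2 was just under young library 3. Groups did not overlap in that direction for 4.16% of 22492 genes in old against young libraries. The share was 5.37% in middle-aged against young libraries. The summed level of 9 Schwann cell markers was 781.9 to 1831.7 TPM in young, 925.2 to 1253.3 TPM in middle-aged and 1623.2 to 5934.5 TPM in old libraries, and it exceeded the stem cell sum in 3 libraries (old libraries 1 and 2 and young library 2). Vcam1, among the stem cell markers, is also a known NF-kappaB target. Bulk libraries listed 12849 to 17114 genes at 1 TPM or more and drew 32.67% to 46.5% of their TPM from mitochondrial genes. Zeros were common: of genes averaging 5 TPM or more in bulk, 39.1% had a 0 in some library. A 0 in these files can be a missed transcript, and the depth behind a TPM is unknown.

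Dimers of the family bind short kappaB elements, and the promoters of the 10 genes were searched for them. RefSeq promoter windows (GRCm38.p6, 250 bases before to 50 bases after a transcription start) were given for 7 of the 10 genes. Nfkb1, Relb and Nfkbiz had no entry. The 10-base kappaB consensus was searched on both strands, and 8.46% of 32851 windows of 300 bases held it, or 7.25% when only the 250 upstream bases counted. Nfkb2, Nfkbia, Tnfaip3 and Tnfaip2 held a match upstream of a start, whereas the windows of Rela, Tnfrsf1a and Icam1 held none. A match is a description of letters, not evidence of a bound site. To compare the elements of these 4 genes, 6 of their upstream matches are given. Each has up to 10 bases on either side, in the direction of the gene, with the matching bases in capitals.
Nfkb2 start 1, chr19:46304688-46304717 (plus strand): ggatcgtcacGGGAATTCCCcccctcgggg
Nfkb2 start 3, chr19:46305695-46305724 (plus strand): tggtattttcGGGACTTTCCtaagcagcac
Nfkbia, chr12:55492657-55492686 (minus strand): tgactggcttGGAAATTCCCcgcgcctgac
Tnfaip3 distal match, chr10:19015516-19015545 (minus strand): gactcacgcgGGGACACCCCggggcgggac
Tnfaip3 proximal match, chr10:19015411-19015432 (minus strand): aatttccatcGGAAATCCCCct
Tnfaip2, chr12:111442627-111442656 (plus strand): gactattttaGGAGGGCCCCtccagggtcg
The Nfkbia match begins 29 bases before the start, the proximal Tnfaip3 match 12 bases, and the distal one 125 bases before it. The Nfkb2 matches printed begin 39 and 225 bases before their starts, and another match overlaps the first of them by 9 bases. Further Nfkb2 matches, not printed, begin 11 bases before start 1 and 236 bases before start 2. The Tnfaip2 match begins 24 bases before the RefSeq start. In GENCODE vM21 the Nfkb2 and Tnfaip2 sequences overlap an annotated exon, and those of Nfkbia and Tnfaip3 overlap none. Only the Nfkbia sequence lies outside the vM21 span of its gene, and those of Nfkb2, Tnfaip3 and Tnfaip2 lie within theirs. All distances above are thus to the RefSeq starts.

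Against young libraries, the target genes Tnfaip2 and Icam1 and the receptor Tnfrsf1a had higher values in both older age groups, with no older library as low as the highest young one. Of all genes, 5.85% had old wholly above young libraries and 12.6% middle-aged wholly above young. The share with both at once was not taken. Tnfaip2 and Icam1 passed the bulk filter only through the older libraries. No member passed the threshold over all genes in any of the 3 comparisons between ages. Nfkbia, the classical feedback inhibitor, had nearly the same mean at the 3 ages. In bulk, fewer cells of a type and less RNA per cell cannot be told apart. Tests were limma fits of log2(TPM + 1) over 22492 genes, with an adjusted p below 0.05 as the threshold.

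**Figure D1:**
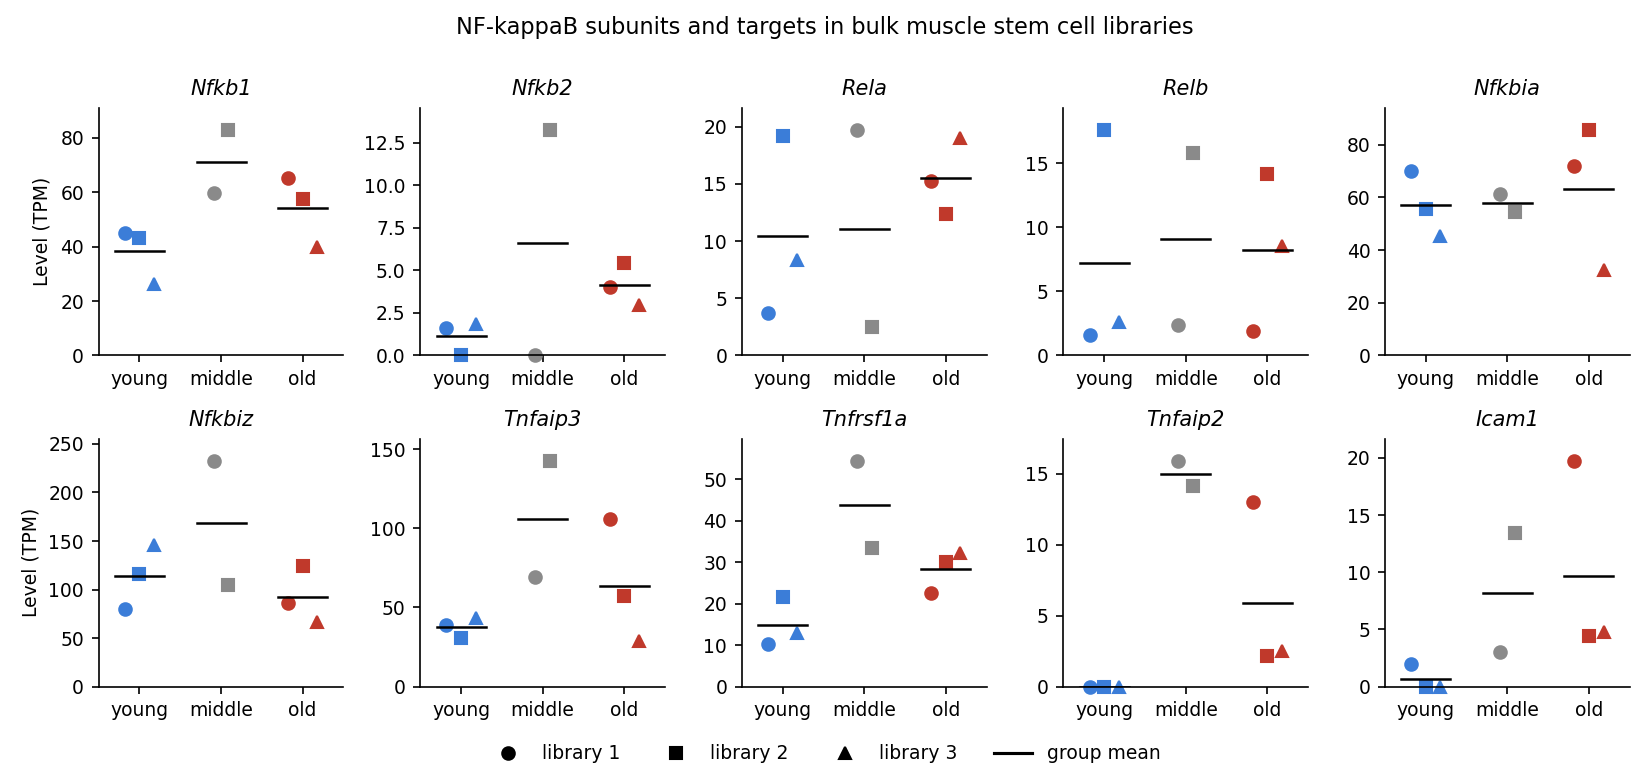
Level of each gene in TPM on a linear axis that starts at 0, in 3 young, 2 middle-aged and 3 old bulk libraries. Points are libraries and bars are group means. Tnfaip2 lies at 0 in the 3 young libraries and at 2.18 TPM or more in all others, while Relb spreads widely within each age and Nfkbia within the old group.

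Nfkb1 encodes p105 and its processed form p50, a DNA-binding partner without an activation domain of its own. It lies on chr3:135584655-135691547 on the minus strand (mm10, GENCODE vM21) and was the most abundant subunit in each age group. Values were 45.04, 43.18 and 26.38 TPM at the young age, 59.61 and 82.75 TPM at middle age and 65.27, 57.39 and 39.75 TPM at the old age. Both middle-aged libraries lay above all young ones, and 1 old library lay among the young ones. The old mean was 54.1 ± 13.1 TPM (SD, n = 3) against 38.2 ± 10.3 TPM in young libraries (SD, n = 3), a difference of 0.50 log2 units (95% interval -0.37 to 1.37; limma adjusted p = 0.839). Middle-aged minus young was 0.90 log2 units (-0.08 to 1.87; limma adjusted p = 0.626). Gm43430, an unverified transcript model on the same strand, overlaps Nfkb1, and its reads cannot be told apart.

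Rela encodes p65, the subunit that carries the transactivation domain of the classical dimer. It lies on chr19:5637483-5648130 (plus strand). At the young age it had 3.67, 19.17 and 8.37 TPM, at middle age 19.7 and 2.5 TPM and at the old age 15.27, 12.33 and 18.98 TPM. The 3 old libraries sat close together, and the 2 middle-aged ones took the highest and the lowest place of all 8. The old mean was 15.5 ± 3.33 TPM and the young mean 10.4 ± 7.95 TPM (SD, n = 3 each), 0.77 log2 units apart (-0.98 to 2.51; limma adjusted p = 0.866). Leaving out young library 1 gave 0.25, and leaving out young library 2 gave 1.30.

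Nfkb2 encodes p100, the precursor of p52 and the inhibitor that holds RelB in the alternative pathway. It lies on chr19:46304320-46312385 (plus strand) and was the least abundant of the 4 subunits at each age. The young libraries gave 1.62, 0 and 1.85 TPM, the middle-aged pair 0 and 13.23 TPM and the old libraries 4.04, 5.44 and 2.96 TPM. Each old library exceeded each young one, and the middle-aged pair lay at both ends of the whole range. The old mean was 4.15 ± 1.24 TPM against 1.16 ± 1.01 TPM in young libraries (SD, n = 3 each), a difference of 1.37 log2 units (-1.04 to 3.77; limma adjusted p = 0.839). Psd and AC114539.1 overlap this gene on the other strand, and strand use in counting is not given, so their reads cannot be told apart here.

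Relb encodes the subunit that pairs with p52 in the alternative pathway. It lies on chr7:19606217-19629438 (minus strand). Values were 1.56, 17.59 and 2.62 TPM at the young age, 2.39 and 15.78 TPM at middle age and 1.92, 14.18 and 8.51 TPM at the old age. Every age held a library below 3 and a library above 14 TPM, and the ages overlapped. Old minus young was 0.43 log2 units (-1.83 to 2.69; limma adjusted p = 0.974), an interval that leaves room for a large change in either direction.

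Nfkbia encodes IkappaB alpha, which holds classical dimers in the cytoplasm and is itself one of their fastest targets. It lies on chr12:55489410-55492647 (minus strand), with the kappaB match printed above just before its start. At the young age it had 69.96, 55.44 and 45.52 TPM, at middle age 61.21 and 54.36 TPM and at the old age 71.94, 85.57 and 32.47 TPM. The old group held both the highest and the lowest of the 8 values. The mean was 63.3 ± 27.6 TPM in old libraries against 56.97 ± 12.3 TPM in young libraries (SD, n = 3 each), 0.06 log2 units apart (-0.89 to 1.01; limma adjusted p = 1). Middle-aged minus young was 0.04 log2 units (-1.02 to 1.1; limma adjusted p = 1). Changes within these intervals were not resolved.

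Nfkbiz encodes IkappaB zeta, a nuclear protein that acts with p50 on a secondary set of inflammatory genes. It lies on chr16:55811375-55838899 (minus strand) and had the highest mean of the 10 genes in each bulk group. The young libraries gave 79.51, 115.81 and 145.99 TPM, the middle-aged pair 232.08 and 104.77 TPM and the old libraries 86.4, 124.05 and 66.27 TPM. The old values overlapped the young ones, and 1 middle-aged library stood above the other 7. It was the only member below 0 for old minus young, at -0.30 log2 units (-1.22 to 0.61; limma adjusted p = 0.896).

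Tnfaip3 encodes A20, an ubiquitin-editing enzyme that is induced by NF-kappaB and shuts the signal off. It lies on chr10:19000910-19015657 (minus strand), and its 2 kappaB matches are printed above. Values were 39.2, 30.49 and 43.54 TPM at the young age, 69.24 and 142.3 TPM at middle age and 105.61, 57.11 and 28.86 TPM at the old age. Both middle-aged libraries exceeded all young ones, and the old group ran from below the lowest young library to far above the highest. Old minus young was 0.57 log2 units (-0.54 to 1.68; limma adjusted p = 0.839), and 0.12 without old library 1. Middle-aged minus young was 1.39 log2 units (0.14 to 2.63; limma adjusted p = 0.58).

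Tnfrsf1a encodes TNF receptor 1, the receptor through which soluble TNF starts the classical pathway. It lies on chr6:125349362-125362484 (plus strand). At the young age it had 10.37, 21.5 and 12.87 TPM, at middle age 54.31 and 33.44 TPM and at the old age 22.64, 30.13 and 32.32 TPM. The 3 ages did not overlap, with the young libraries lowest, the old ones between, and the middle-aged ones highest. The gap between the lowest old library and the highest young one was narrow. The old mean was 28.4 ± 5.08 TPM against 14.9 ± 5.84 TPM in young libraries (SD, n = 3 each), 0.93 log2 units apart (-0.09 to 1.95; limma adjusted p = 0.839). Middle-aged minus young was 1.52 log2 units (0.37 to 2.66; limma adjusted p = 0.456).

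Tnfaip2, a TNF-induced gene known in endothelial and myeloid cells and linked to membrane protrusions, lies on chr12:111442469-111455018 (plus strand). It was listed at 0 in all 3 young libraries. Its level was 15.86 and 14.11 TPM in the middle-aged pair and 13, 2.18 and 2.52 TPM in the old set. The 2 middle-aged libraries were close together, and 1 old library was near them while the other 2 lay far lower. No fold is given against a group at 0. On the log2(TPM + 1) scale the difference was 2.43 for old minus young (0.51 to 4.35; limma adjusted p = 0.764) and 4 for middle-aged minus young (1.85 to 6.15; limma adjusted p = 0.317). Both sizes depend on the added 1, and were 0.99 and 2.00 with 5 TPM added. The antisense gene Gm40578 overlaps Tnfaip2, and its reads cannot be told apart here.

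Icam1, an adhesion molecule for leukocyte integrins that TNF induces in many cell types, lies on chr9:21015985-21028817 (plus strand). The young libraries gave 1.97, 0 and 0 TPM, the middle-aged pair 3.02 and 13.42 TPM and the old libraries 19.69, 4.41 and 4.8 TPM. Every older library lay above every young one, and old library 1 stood far above the other 2 old libraries. The mean was 9.63 ± 8.71 TPM in old libraries against 0.66 ± 1.14 TPM in young libraries (SD, n = 3 each). The difference was 2.59 log2 units for old minus young (0.50 to 4.69; limma adjusted p = 0.781) and 2.41 for middle-aged minus young (0.06 to 4.75; limma adjusted p = 0.625). With 5 TPM added in place of 1, these were 1.24 for old minus young and 1.12 for middle-aged minus young, and with 1 added the middle-aged difference was 1.48 without middle-aged library 2. Without old library 1, old minus young was 1.74 for Tnfaip2 and 1.96 for Icam1. The antisense gene Gm47079 overlaps Icam1, so the same limit holds.

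**Figure D2:**
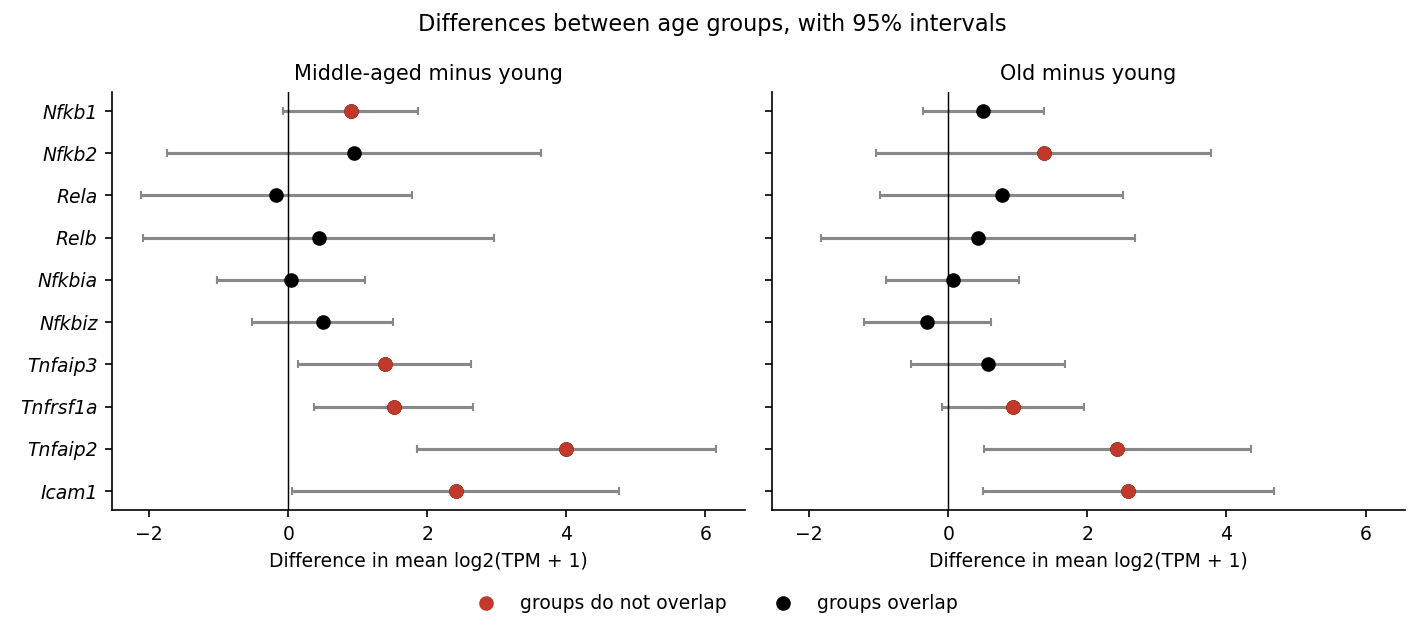
Difference in mean log2(TPM + 1) between age groups for each gene, with 95% limma intervals, for middle-aged minus young (left) and old minus young (right). Red points mark genes whose groups do not overlap. Both panels share the young libraries, and the intervals of Tnfaip2 and Icam1 lie above 0 in both before adjustment over all genes.

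Counted over the 10 genes, none was called for old against young by limma, where 0% of all 22492 genes were called. At an unadjusted p below 0.05, 2 members were higher in old libraries (Tnfaip2 and Icam1) and none lower, against 3.72% of all genes higher. These 2 passed the bulk filter only through older libraries, with young means of 0 and 0.66 TPM, so being tested required higher values there. Groups did not overlap, with old above young, for 4 members (Nfkb2, Tnfrsf1a, Tnfaip2 and Icam1), against 5.85% of all genes. The difference was above 0 for 9 members, against 49.6% of all genes, and its median was 0.67 log2 units beside 0 over all genes.

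For middle-aged against young libraries, limma again called no member, and 0.00445% of all genes (1 gene, not a member) passed. At an unadjusted p below 0.05, 4 members were higher in middle-aged libraries (Tnfaip3, Tnfrsf1a, Tnfaip2 and Icam1), against 5.5% of all genes. Groups did not overlap, with middle-aged above young, for 5 members (those 4 and Nfkb1), against 12.6% of all genes. The difference was above 0 for 9 members, against 55.2% of all genes. The genes not given above differed by 0.95 (Nfkb2), -0.17 (Rela), 0.44 (Relb) and 0.50 log2 units (Nfkbiz). The members' median was 0.92 log2 units beside 0.18 over all genes. Centring each library on the median of its genes moved the median of all genes to -0.26, left 7 members above 0, and left 1 member in place of 4 at an unadjusted p below 0.05. Tnfaip2 and Icam1 passed the bulk filter only through the older libraries, with young means of 0 and 0.66 TPM, so their place among the tested genes already required higher values there. The members were chosen with results of these data known, and both comparisons use the same young libraries, so these counts describe the data and are not independent of each other.

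Old against middle-aged libraries gave no call among the members, none at an unadjusted p below 0.05, and 0% of all genes called by limma, with 526 genes higher and 866 lower in old libraries at that unadjusted level. The difference was below 0 for 6 of the 10 genes, against 53% of all genes. Groups did not overlap, with old below middle-aged, for Tnfrsf1a and Tnfaip2, against 12.8% of all genes. The Tnfaip2 difference was -1.57 log2 units (-3.72 to 0.59; limma adjusted p = 0.724), that of Nfkbiz -0.80 (-1.82 to 0.22; limma adjusted p = 0.724), and that of Tnfaip3 -0.82 (-2.06 to 0.43; limma adjusted p = 0.755). The other genes differed by -0.59 (Tnfrsf1a), -0.40 (Nfkb1), -0.01 (Relb), 0.02 (Nfkbia), 0.19 (Icam1), 0.42 (Nfkb2) and 0.94 log2 units (Rela). The members' median of -0.20 log2 units stood beside -0.09 over all genes, and centring on the library medians moved the median of all genes to 0.35 and left 6 members above 0.

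Levels across the 10 genes kept much of their order. In each bulk group Nfkbiz came first, Nfkbia, Tnfaip3 and Nfkb1 took the next 3 places, and Tnfrsf1a the fifth. In old libraries Tnfaip3 averaged 63.9 ± 38.8 TPM, Nfkbia 63.3 ± 27.6 TPM and Nfkb1 54.1 ± 13.1 TPM (SD, n = 3 each), so these neighbours did not differ beyond their spread. Lower down, the old means of Rela, Icam1, Relb, Tnfaip2 and Nfkb2 ran from 15.5 to 4.15 TPM with SDs of 3.33, 8.71, 6.14, 6.15 and 1.24 TPM. Neighbours in that order overlapped, but its ends did not. Old libraries had 15.27, 12.33 and 18.98 TPM for Rela and 4.04, 5.44 and 2.96 TPM for Nfkb2. Ranked within each gene over the 8 libraries from lowest to highest, the members had a median rank of 2.5, 3 and 2.5 in the young libraries, 6 and 7 in the middle-aged libraries, and 6, 5 and 5 in the old libraries. The middle-aged libraries held the highest value of 7 of the 10 genes. Such ranks and counts were not taken over all genes, of which 55.2% lay above 0 for middle-aged minus young. Of the 7 member values at 0, all but 1 were in young libraries. Tnfaip2 gave 3 of them and Icam1 2, and both genes passed the bulk filter only through older libraries. Young library 2 also listed the fewest genes of all bulk libraries (12849).

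Members varied together to unequal degrees. Over the 8 libraries the 45 pairs of members had Pearson correlations of log2(TPM + 1) from -0.57 to 0.82 with a median of 0.23, and 32 were above 0. The highest were Tnfaip2 with Icam1 (0.82), Tnfaip3 with Tnfaip2 (0.81), and Nfkb1 with Icam1 and with Tnfaip2 (0.80 each). The lowest was Nfkb2 with Rela at -0.57. These libraries share ages and zeros, so the values are descriptions. For Nfkbia the most similar genes among 7166 compared over the 8 libraries were Cpeb3 (r = 0.879), Nr4a1 (0.873), Abcg2 (0.863), Etfb (0.852) and Lmbr1 (0.851). Values this high can arise in unrelated genes when 7166 are ranked over 8 libraries, and none was tested. Nr4a1 encodes an immediate early nuclear receptor and is one of the immediate early genes summed here. The summed level of 16 dissociation and immediate early genes was 13199.7 to 15076.5 TPM in young, 12721.3 to 16055.3 TPM in middle-aged and 12381.7 to 15841.1 TPM in old libraries, so the ages overlapped.

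Other cell types of muscle also express these genes, so their markers were read beside them. The summed level of 10 endothelial markers was 28.4 to 45.8 TPM in young, 55.9 to 100 TPM in middle-aged and 46.3 to 70.5 TPM in old libraries. It did not overlap between young and older libraries, by a narrow margin, and Tnfaip2 and Icam1 did not either. Cldn5, Egfl7 and Tie1 were at 0 in all 8 libraries. Pecam1 was at 0, 0 and 6.3 TPM in young, 41.86 and 3.23 TPM in the middle-aged pair, and 9.07, 13.66 and 6.25 TPM in the old set. The sum of 10 macrophage markers was 11.5 to 36.2 TPM in young, 73.7 to 125.7 TPM in middle-aged and 20.8 to 56.4 TPM in old libraries. Of its defining genes, C1qa was at 0 in all 8 libraries, and Adgre1 was at 0 in 6 of them, with 2.43 TPM in middle-aged library 1 and 2.63 TPM in old library 1. The leukocyte gene Ptprc had 5.38, 10.89 and 25.62 TPM in the young set, 4.79 and 4.25 TPM in the middle-aged set and 5.3, 7.58 and 3.18 TPM in the old set, so it was not higher in older libraries. The sum of 6 tenocyte markers was 9.8 to 29.1 TPM in young, 64.4 to 91.4 TPM in middle-aged and 68.7 to 81.4 TPM in old libraries. The tenocyte sums of all older libraries thus lay above the young ones. The sum of 7 lymphocyte markers, Ptprc included, was 19.3 to 32.4 TPM in young, 37.9 to 68 TPM in middle-aged and 9.6 to 19.7 TPM in old libraries. Unlike Ptprc alone, that sum was higher in both middle-aged libraries than in any young one. Fibroblast markers summed to 869.5 to 979.4 TPM in young, 835.6 to 847.6 TPM in middle-aged and 923.3 to 1426.6 TPM in old libraries. Neutrophil markers summed to 2.6 to 58.9 TPM in young, 7.5 to 8.8 TPM in middle-aged and 0 to 37.8 TPM in old libraries. Smooth muscle and pericyte markers summed to 449.5 to 608.6 TPM in young, 515.7 to 681.4 TPM in middle-aged and 424.3 to 869.8 TPM in old libraries. The part of these other cells, and of the Schwann cell markers given earlier, in the members' values was not tested.

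The pathway around the members was read from a list of 73 further genes in 9 roles, of which 64 passed the bulk filter. For old against young none passed the limma threshold, 11 were higher and none lower at an unadjusted p below 0.05, and 41 lay above 0, against 3.72% of all genes higher, 488 of all 22492 genes lower, and 49.6% above 0. Their median difference was 0.29 log2 units, beside 0 over all genes. For middle-aged against young none passed, 12 were higher and none lower at an unadjusted p below 0.05, and 42 lay above 0, against 5.5% of all genes higher, 512 genes lower and 55.2% above 0. The median was 0.66 beside 0.18 over all genes. Of the 12, Irak2 and Traf1 passed the filter only through older libraries, with young means of 0 and 0.48 TPM. The pathway genes for old against middle-aged split evenly, with 32 above and 32 below 0, against 42.4% of all genes above and 53% below. Groups did not overlap for 9 pathway genes lower and 3 higher in old libraries, against 12.8% and 7.15% of all genes.

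**Figure D3:**
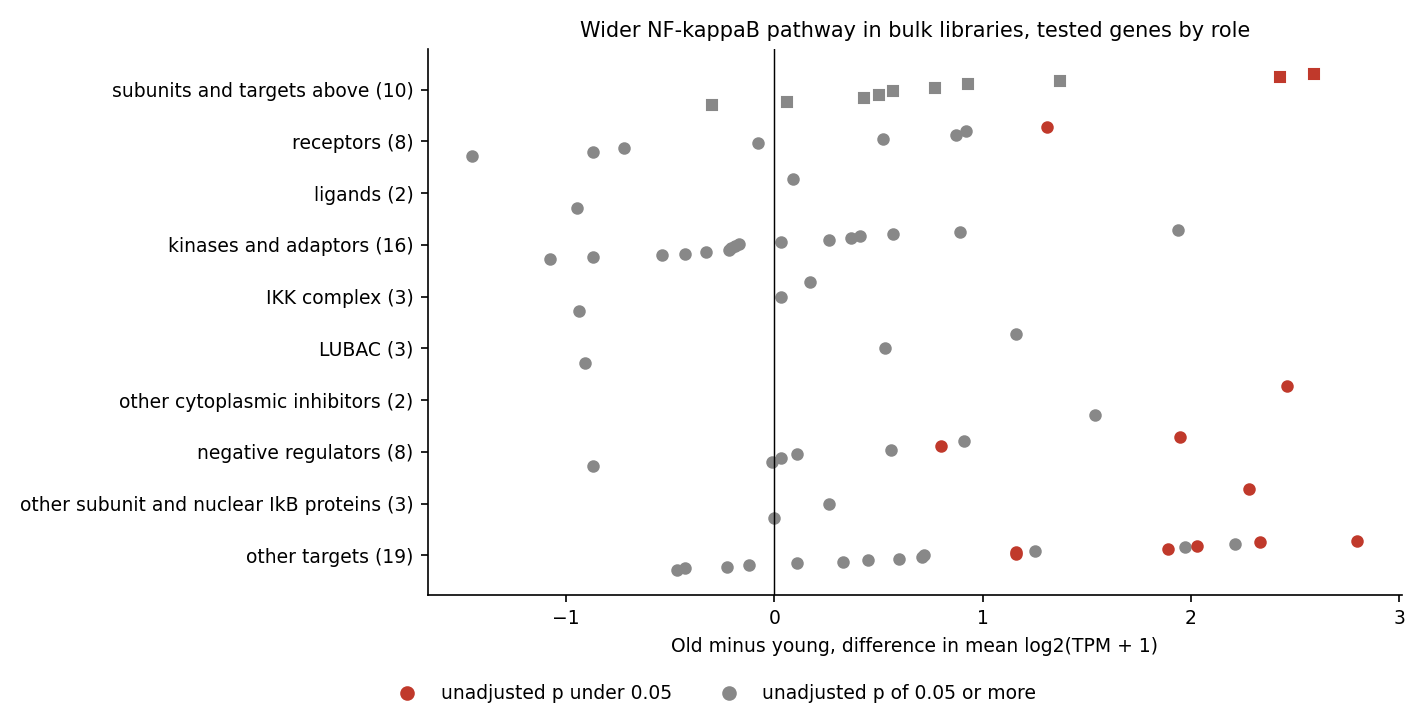
Old minus young difference in mean log2(TPM + 1) for the 64 tested pathway genes by role, with the number of genes in brackets, and for the 10 subunits and targets (squares, top row). Red marks an unadjusted p below 0.05, all of which lie to the right of 0. None passed adjustment over all genes.

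Of 7 ligand genes, 5 did not pass the bulk filter. Tnf, Il1a and Ltb were listed at 0 in all 8 bulk libraries, Il1b was found only in old library 3 at 2.41 TPM, and Lta only in middle-aged library 2 at 5.26 TPM. These are the inducing cytokines of the classical and alternative pathways, and a 0 here can be a missed transcript. Tnfsf11 (RANK ligand) and Tnfsf12 (TWEAK) passed the filter and differed by -0.95 and 0.09 log2 units between old and young libraries, and Tnfsf12 lay at 5.04 to 22.26 TPM. Among receptors, Ltbr, the lymphotoxin beta receptor, had 7.24, 5.04 and 16.51 TPM in the young set, 26.71 and 46.2 TPM in the middle-aged set and 16.07, 29.71 and 24.54 TPM in the old set. Its middle-aged values exceeded all young ones, and 1 old library lay just below the highest young one. Old minus young was 1.31 log2 units for Ltbr (limma adjusted p = 0.831), 0.87 for the endotoxin receptor Tlr4 and -0.87 for the interleukin 1 receptor Il1r1.

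Signalling proteins lay on both sides of 0. Of 16 kinases and adaptors, 7 lay above and 9 below 0 for old minus young. Irak2, a kinase of interleukin 1 and Toll-like receptors, differed by 1.94, the adaptor Tab2 by 0.57 and the kinase Irak4 by -0.87 log2 units. Irak2 was listed at 0 in the 3 young libraries, and its level was 19.46 and 17.38 TPM in the middle-aged pair and 0, 13.05 and 3.04 TPM in the old set. Tradd, the adaptor of TNF receptor 1, was 33.76 and 29.3 TPM in the 2 middle-aged libraries and at most 3.51 TPM in the other 6. It was the only pathway gene at an unadjusted p below 0.05 for old against middle-aged, where it was lower in old libraries. The IkappaB kinase subunits differed between old and young libraries by -0.94 (Ikbkg, the regulatory subunit), 0.17 (Chuk) and 0.03 log2 units (Ikbkb). The linear ubiquitin ligase subunits differed by -0.91 (Sharpin), 1.16 (Rnf31) and 0.53 (Rbck1).

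Inhibitors and further targets held most of the low unadjusted p-values. Nfkbib, which encodes the inhibitor IkappaB beta, had 4.38, 9.08 and 0 TPM in the young set, 20.09 and 17.85 TPM in the middle-aged set and 10.93, 21.96 and 32.02 TPM in the old set. Its older libraries all lay above the young ones, and old minus young was 2.46 log2 units (0.59 to 4.34; limma adjusted p = 0.738). Old lay wholly above young for 5.85% of all genes, and middle-aged above young for 12.6%. The related inhibitor Nfkbie differed by 1.54 log2 units. Bcl3, a nuclear IkappaB protein that works with p50 and p52, differed by 2.28 (limma adjusted p = 0.833), the subunit gene Rel by 0.26, and Nfkbid was found in 1 middle-aged library only. Of 8 negative regulators, Tax1bp1, an A20 partner, differed by 0.80, the linear-chain deubiquitinase Otulin by 1.95 and the RNase gene Zc3h12a by 0.91 log2 units.

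Among 19 tested targets outside the 10 genes, 15 lay above 0 for old minus young, against 49.6% of all genes, and 6 were higher and none lower at an unadjusted p below 0.05, against 3.72% of all genes higher. The chemokine gene Cxcl10, which is also an interferon target, had 2.27, 4.74 and 2.59 TPM in the young set, 14.74 and 27.67 TPM in the middle-aged set and 42.39, 15.68 and 30.61 TPM in the old set. Gadd45b, a stress-response gene, had 8.58, 8.89 and 9.75 TPM in the young set, 19.66 and 29.12 TPM in the middle-aged set and 42.66, 47.78 and 23.51 TPM in the old set. Both genes had every older library above every young one, with a wide gap. They were named for the smallest p in old against young, which favours such gaps. Old lay wholly above young for 5.85% of all genes, and middle-aged above young for 12.6%. Old minus young was 2.80 log2 units for Cxcl10 (1.49 to 4.12; limma adjusted p = 0.501) and 1.89 for Gadd45b (0.85 to 2.94; limma adjusted p = 0.544). Irf1, an interferon-pathway transcription factor gene, differed by 1.16 log2 units (0.28 to 2.04; limma adjusted p = 0.738). The endothelial, macrophage and tenocyte marker sums given above were also higher in some or all older libraries, and their part in these values was not tested.

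Single wells showed how the members are spread between cells. The well files hold TPM that include spike-in RNA, synthetic control molecules. Its share of the TPM had a median of 95.6% in the 31 wells of the old mouse and 66.6% in the 64 wells of the young mouse. Wells with at least 1000 genes at 1 TPM numbered 7 of 31 from the old mouse and 54 of 64 from the young mouse, and the values below are from those unless stated. Even there the spike-in share was 48.96% to 83.6% in wells of the old mouse and 38.24% to 79.3% in wells of the young mouse, so well TPM understate a gene's share of cellular RNA. With 1 mouse per age there is no test between ages.

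**Figure D4:**
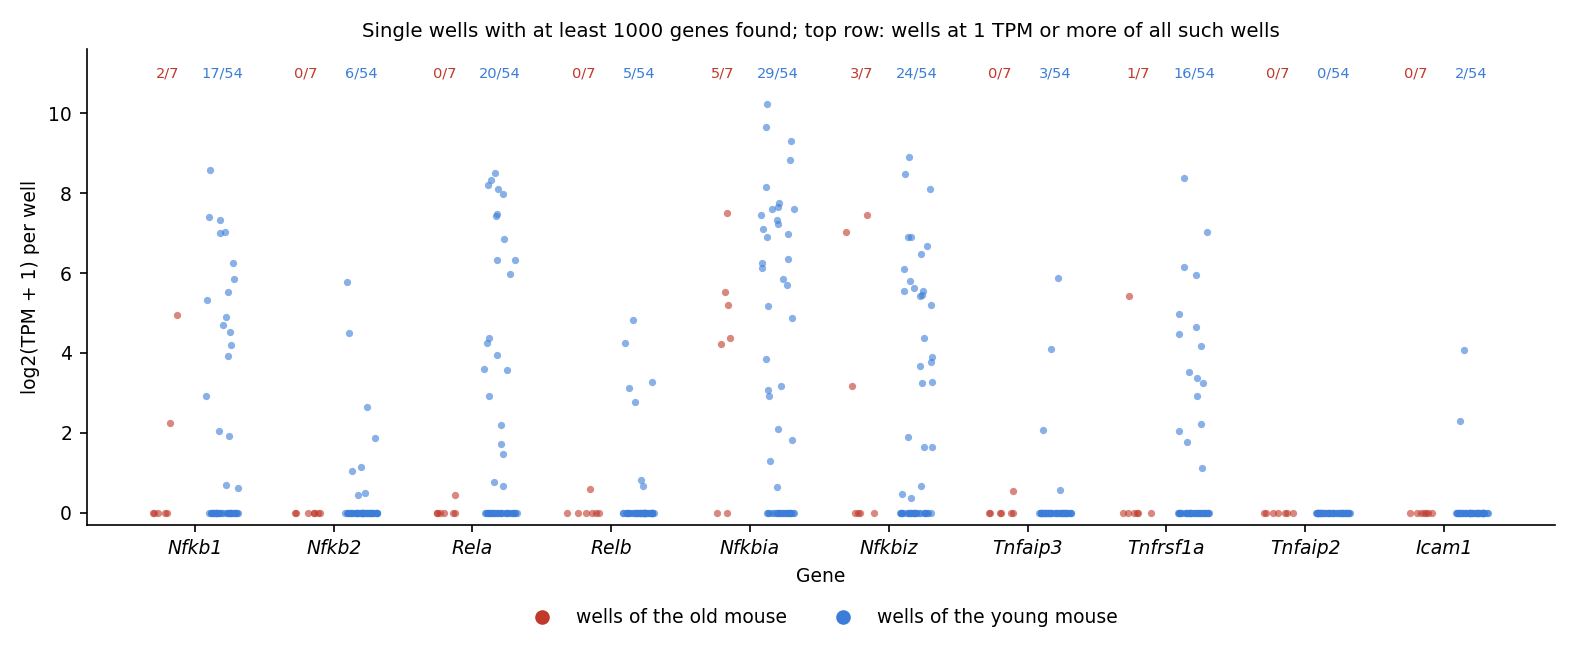
Level per well as log2(TPM + 1) in wells with at least 1000 genes found, for the mouse of 24 months (red, left of each pair) and the mouse of 3 months (blue, right). The numbers above are wells at 1 TPM or more of all such wells. Nfkbia was found in 5 of 7 wells of the old mouse and 29 of 54 wells of the young mouse, and Tnfaip2 in none.

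In wells of the young mouse, found meaning 1 TPM or more, the IkappaB family genes were found most often. Nfkbia was found in 29 of 54 wells (53.7%, Clopper-Pearson 95% interval 39.6 to 67.4%), with a median of 119 TPM where found and a range of 1.45 to 1202.77 TPM. Nfkbiz was found in 24 wells (44.4%, 30.9 to 58.6%), Rela in 20 (37.0%, 24.3 to 51.3%), Nfkb1 in 17 (31.5%, 19.5 to 45.6%) and Tnfrsf1a in 16 (29.6%, 18 to 43.6%). The intervals of these 5 genes overlap. Nfkb2 was found in 6 wells, Relb in 5, Tnfaip3 in 3 and Icam1 in 2, the last at 15.81 and 3.89 TPM. Tnfaip2 was found in 0 of 54 wells, which by a limit of 3 wells allows a share of up to 5.56% of wells with a detected transcript. These bounds reflect the counting of wells alone, and a well at 0 can hold a missed transcript.

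In the 7 usable wells of the old mouse, Nfkbia was found in 5 (71.4%, 29 to 96.3%), Nfkbiz in 3, Nfkb1 in 2 and Tnfrsf1a in 1. The other 6 genes were found in none, and 0 of 7 wells, by the same limit of 3 wells, allows detection in up to 42.9% of wells. Over all wells Nfkbia was found in 8 of 31 wells of the old mouse (25.8%, 11.9 to 44.6%) and 30 of 64 wells of the young mouse (46.9%, 34.3 to 59.8%). The order between the mice thus turned round with the wells counted, and 24 of the 31 wells of the old mouse held fewer than 1000 genes.

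Wells seldom held many members at once. In the 54 wells of the young mouse the median was 2 members per well, the highest 6, and 7 wells held none. At least 1 of the 4 subunits was found in 34 wells. Nfkb1 and Rela, the subunits of the classical dimer, were found together in 8 wells, Nfkb1 without Rela in 9, Rela without Nfkb1 in 12, and neither in 25. Nfkbia and Nfkbiz were found together in 15 wells, Nfkbia alone in 14, Nfkbiz alone in 9 and neither in 16. Wells with Nfkbia had a median of 2011 genes found and wells without it 1664. Every other detected member except Nfkb1 went the same way, such as Rela with 2074.5 against 1830 and Tnfrsf1a with 2200 against 1875. Wells with Nfkb1 had 1882 and wells without it 1975. A member not found in a well may have been missed.

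The cells in those wells carried stem cell markers. Pax7 was found in 5 of 7 wells of the old mouse and 38 of 54 wells of the young mouse, and Myf5, a myogenic factor, in 7 of 7 wells of the old mouse and 50 of 54 wells of the young mouse. The leukocyte gene Ptprc, the macrophage gene Adgre1 and the fibroblast gene Pdgfra were found in none of these wells from either mouse. The endothelial gene Pecam1 was found in 0 of 7 wells of the old mouse and 2 of 54 wells of the young mouse. For the Schwann cell gene Sox10 it was 0 of 7 wells of the old mouse and 1 of 54 wells of the young mouse. The other genes of those marker lists were not read in wells, and a well at 0 can hold a missed transcript. Adgre1 was at 0 in the young bulk libraries too. The presence of other cell types in the wells was thus not tested.

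Bulk and wells of the young age gave different orders of the 10 genes. Both tables were normalized separately, so only their levels are set side by side, with well values rescaled to the share of genes without spike-in. Tnfaip3 averaged 2.63 TPM over wells with at least 1000 genes and 37.7 TPM in bulk, and Rela 106.72 TPM over wells and 10.4 TPM in bulk. Nfkbia averaged 276.02 TPM over wells and 56.97 TPM in bulk, and Nfkbiz 97.8 TPM over wells and 113.77 TPM in bulk. The well means rest on few cells: 1 well gave 74.3% of the Tnfaip3 sum and 21.9% of the Nfkbia sum as deposited. Tnfaip2 was at 0 in the young bulk libraries and in the wells of the young mouse alike.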

How the data were processed

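RNA sequencing covered 8 bulk libraries and 95 wells. Both deposited tables hold TPM computed by the authors, per the labels, and the submitters' processing notes name STAR and mm10. Annotation, quantifier and strand setting were not stated in the sources used here. Depth cannot be read from TPM. Entries without an Ensembl ID (2423 of 45798, besides 92 spike-in RNAs) were left out of the bulk table. No sample columns were left unmapped. Bulk comparisons used limma 3.58.1 (R 4.3.3) on log2(TPM + 1), with a filter of mean TPM at or above 1, all 8 libraries in 1 fit, a variance trend, and Benjamini-Hochberg adjustment over 22492 genes. The fit was tested on simulated data. Wells were only described. Promoters came from RefSeq tables. Python 3.11.15, pandas 2.3.3, numpy 2.4.6, scipy 1.17.1 and matplotlib 3.10.9 were used.

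The members, lists and naming rule were chosen with earlier results of these data known. All 10 members were named. From each role of the pathway list, up to 3 tested genes with the smallest p for old against young were named, and other pathway genes named were chosen after their values were seen. Alternatives tried were other pseudocounts, filters and scalings, no trend, 2 groups only, a replicate block and leaving out each library. A result that involves a withheld item is not reported here.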

Additional observations from a re-analysis of the deposited data

How the results depend on the processing

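No member was called by limma under any alternative, in any of the 3 comparisons. For old against young, 8 of 10 members kept their direction throughout, and 0 genes were called in every alternative, the replicate block included (as reported, 837 genes were higher and 488 lower at an unadjusted p below 0.05). Without 1 library, Relb ran from -0.13 to 1.30, Nfkbia from -0.21 to 0.48, Rela from 0.25 to 1.30, Nfkb1 from 0.26 to 0.70, Nfkb2 from 0.89 to 1.64 and Nfkbiz from -0.54 to -0.09 log2 units.

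The count of all genes called for middle-aged against young, 1 as reported, was 6 with a pseudocount of 0.5, 0 with 5, 0 without a filter, 2 at a mean of at least 5 TPM, 0 without mitochondrial genes, 8 with median centring, 12 without a trend, 0 with only 2 groups and 0 with the replicate block. Without 1 library it ran from 0 to 859 (600 without middle-aged library 1 and 859 without library 2, the lone one assumed to vary like other groups). For old against middle-aged it was 1 with median centring and ran from 0 to 792 without 1 library (580 without middle-aged library 1, 792 without library 2). The cause was not tested. Under median centring, middle-aged minus young was 0.00 for Relb and -0.40 for Nfkbia, and old minus middle-aged 0.04 for Nfkb1 and 0.44 for Relb. The replicate block gave -0.24 for Nfkbia (middle-aged minus young) and 0.06 for Relb (old minus middle-aged). Once the age means were taken out, the residuals of same-numbered libraries correlated at -0.012 to 0.005, so no pairing was seen in them. Residuals of libraries with unlike numbers were not set beside these. Old minus middle-aged was -0.07 for Nfkb2 with a pseudocount of 5 and 0.02 for Relb without mitochondrial genes.

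Without 1 library, middle-aged minus young ran from -0.97 to 2.86 for Nfkb2, -1.45 to 1.11 for Rela, -0.71 to 1.59 for Relb, -0.11 to 0.20 for Nfkbia and -0.07 to 1.07 for Nfkbiz. Old minus middle-aged ran from -1.50 to 2.34 for Nfkb2, -0.34 to 2.22 for Rela, -1.16 to 1.15 for Relb, -0.25 to 0.44 for Nfkbia and -0.74 to 1.11 for Icam1. In wells of the old mouse 4 members were found at 1 TPM or more and 7 above 0 TPM. Depth is unknown for TPM, and 2 or 3 libraries per age leave changes of low genes unresolved.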
